A study of Homo sapiens with 12 samples.

Results

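Interferon-stimulated genes were followed in HCT116 cells, a colon cancer line, and PANC1 cells, a pancreatic adenocarcinoma line, after treatment with inhibitors of the co-activator CBP. The 9 genes IFI6, IFI27, IFIT1, IFIT2, IFIT3, ISG15, MX1, OAS1 and IRF9 were picked by name out of 34687 rows of an Illumina HumanHT-12 expression array, and each had 1 row under its current symbol. They were picked with earlier results of the same arrays in view, so their values are given as descriptions. Cells of each line were treated with DMSO at 0.05%, which is the solvent, with ICG-001 at 10 uM or with C646 at 10 uM, and RNA was taken after 12 or 96 h. ICG-001 binds CBP (CREBBP) and blocks its contact with β-catenin, whereas C646 competes with acetyl-CoA at the acetyltransferase domains of CBP and p300 (EP300). The 12 combinations of line, treatment and time each had 1 column of values, a mean made by the authors from 2 arrays, or from 3 arrays for PANC1 with ICG-001 at 12 h. Single-array values were not used here, so no difference carries an error or a replicate check, and no test was run. Per the study's methods, cells for 96 h were plated less densely, were passaged and had medium and drug renewed daily, so that time and culture cannot be told apart. Each tumor type is represented by 1 cell line.

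Type I and type III interferons bind receptors whose kinases, JAK1 and TYK2, phosphorylate STAT factors. These join IRF9 to form ISGF3, which binds the interferon-stimulated response element (ISRE) in front of genes such as IFIT1, ISG15 and MX1. Interferon gamma acts through the gamma-activated site (GAS), and among its targets is IRF1, a factor that can bind ISRE-like sequences on its own. CBP and p300 serve as co-activators of STAT and IRF factors. Epithelial tumor lines often hold a low standing level of these genes without added interferon.

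In GRCh38.p14, as annotated by RefSeq, IFI6 spans chr1:27666064-27672192 and ISG15 chr1:1013497-1014540. IFIT2 (chr10:89302046-89309271), IFIT3 (chr10:89327997-89340968) and IFIT1 (chr10:89392623-89406487) form a cluster. OAS1 lies at chr12:112906962-112933219, IRF9 at chr14:24161265-24166565, IFI27 at chr14:94105894-94116690 and MX1 at chr21:41420558-41459214. The promoter sequences are shown because the elements that read the interferon signal lie in them. RefSeq windows of GRCh38.p14 from 250 bases before to 50 bases after a transcript start were found for 8 of the 9 genes, in 12 windows of 300 bases. Both strands were searched for the core of the ISRE, which is GAAA, 2 bases of any kind and GAAA again, and for TTCNNNGAA, the GAS. The ISRE core was found in 9 of the 12 windows and in 6 of the 8 genes (IFI6, IFI27, IFIT1, IFIT3, ISG15 and MX1), against 3.57% of 34943 windows of the same length and 4.38% of 27305 genes. The GAS was found in 5 of the 12 windows and in 4 of the 8 genes (IFI27, MX1, OAS1 and IRF9), against 7.66% of all windows and 9.38% of genes. The IFI27 windows overlap and hold the same matches, so the window counts include these matches more than once. In IFI27 and in 1 window of MX1 the GAS letters overlap an ISRE match, and in ISG15 the pair of ISRE matches overlap each other. A match describes letters and not binding. In the stretches below, read 5′ to 3′ on the strand of the gene, capitals mark ISRE matches in the first 4 and the GAS match in the last, and a pair of TTTC blocks is the ISRE core read from the other strand. IFI6 holds 3 matches from 156 to 93 bases before its start (chr1:27672256-27672368, minus strand). IFIT1 (chr10:89392487-89392549, plus strand), IFIT3 at its first start (chr10:89327821-89327904, plus strand) and ISG15 (chr1:1013364-1013419, plus strand) hold 2 each. IRF9 (chr14:24161182-24161230, plus strand) holds 1 GAS match.
IFI6: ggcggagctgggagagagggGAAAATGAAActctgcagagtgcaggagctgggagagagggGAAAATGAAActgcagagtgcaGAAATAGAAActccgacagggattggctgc
IFIT1: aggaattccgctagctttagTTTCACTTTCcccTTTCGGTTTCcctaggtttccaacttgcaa
IFIT3: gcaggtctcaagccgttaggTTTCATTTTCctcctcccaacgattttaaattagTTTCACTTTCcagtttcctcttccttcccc
ISG15: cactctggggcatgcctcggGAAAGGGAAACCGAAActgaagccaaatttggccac
IRF9: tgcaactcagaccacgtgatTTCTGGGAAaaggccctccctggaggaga

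The values are signal intensities with background left in, and a gene was taken as detected above a limit set at the peak of the column's log2 signals plus 2.33 SD. That limit was between 143.7 and 144.1 for HCT116 and between 135.3 and 137.9 for PANC1, and 44.5% to 47.3% of genes per column were above it. Genes under the limit in every column of a line differed between columns with an SD of 0.062 to 0.073 on the log2 scale. This is the only measure of noise in these columns. It was taken from dim genes alone, so it does not measure how brighter genes vary between arrays or cultures. A gene was compared where at least 1 of the columns was above the limit, and was called higher or lower at 1.5-fold, a log2 ratio of 0.58. Ratios near the limit understate a change. HCT116 and PANC1 columns differ in their distribution of signals, as if normalized separately, so the lines were compared only through ratios and detection. Of the marker genes, CDX2, an intestinal factor, was above the limit in every column of both lines, and the colon genes CDH17, VIL1 and LGALS4 were under it in every HCT116 column. The duct keratin KRT19 was detected in every column of both lines. The leukocyte genes PTPRC and CD3E were under the limit in all 12 columns, and 1 or 2 of 5 leukocyte markers were above it per column, with sums of signal between 663 and 699 for HCT116 and between 646.1 and 673 for PANC1. A 28S ribosomal RNA row, LOC100008589, moved with drug: in PANC1 it read 134 and 173 in DMSO at 12 and 96 h, 438 and 2841 in ICG-001, and 509 and 1418 in C646, and in HCT116 it read 399 and 496, 1733 and 1180, and 623 and 831. KRT19 was lower with ICG-001 at 96 h in PANC1, at 5006 against 11273 in DMSO, and KRT7, another keratin, was at 389 and 336 with ICG-001 in HCT116 and under the limit in both DMSO columns there. The part of these rows in the results was not tested.

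Standing levels differed between the lines in which genes could be read. IFI6, a small protein of mitochondria and the ER that limits cell death, ISG15, a ubiquitin-like modifier, and IRF9 were above the limit in all 6 columns of both lines, as was IFIT1, which binds viral RNA caps. IFIT2 and IFIT3, partners of IFIT1, were above it in all 6 PANC1 columns but in 4 and 0 of the HCT116 columns. MX1, a GTPase that traps viral particles, was above it in all 6 PANC1 columns and in 1 HCT116 column, C646 at 96 h. IFI27, a relative of IFI6, went the other way, with 4 of 6 HCT116 columns and 0 of 6 PANC1 columns above the limit. OAS1, which makes the activator of RNase L, was above it in 0 HCT116 columns and in 3 PANC1 columns, where its highest signal was 138.1. In RNA from whole cultures, a change in RNA per cell and a change in the share of cells that carry it cannot be told apart.

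**Figure D1:**
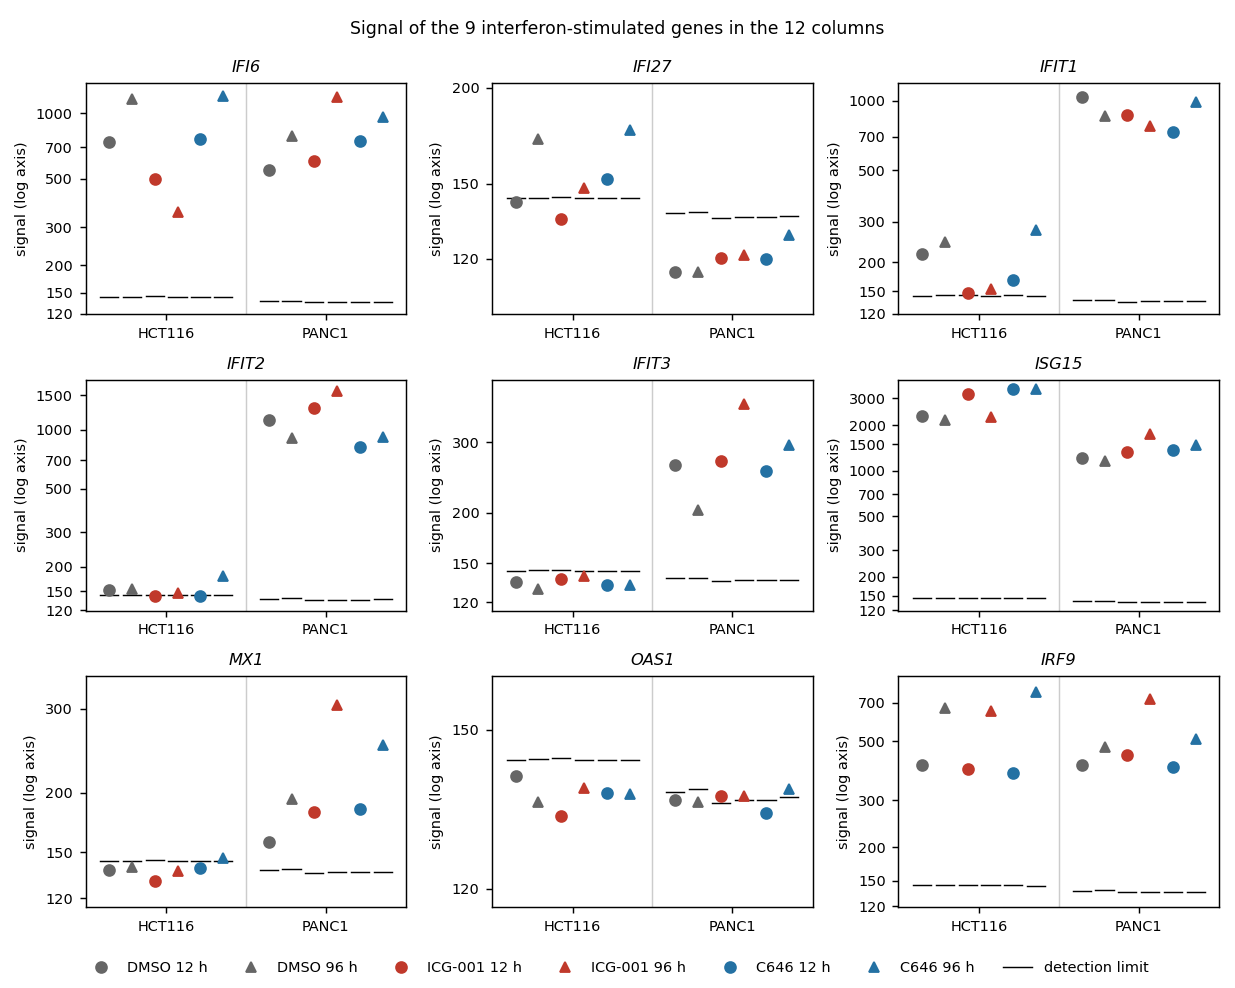
Signal of each of the 9 genes on a log axis, with the 6 HCT116 columns on the left and the 6 PANC1 columns on the right of each panel; colors mark the treatment, circles 12 h, triangles 96 h and short lines the detection limit of the column. In HCT116 IFI6 is lowest in the ICG-001 columns (497 and 353). In PANC1 the ICG-001 96 h column is the highest for 6 of the 9 genes, against 23.1% of 19322 genes detected in the line.

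IFI6 showed the widest range of the 9 genes, and at 96 h its response to ICG-001 went in opposite directions in the 2 lines. In HCT116 cells IFI6 read 738 at 12 h and 1165 at 96 h in DMSO, 497 and 353 in ICG-001, and 766 and 1199 in C646. Both ICG-001 columns lay below all 4 others, and the C646 columns lay next to the DMSO columns of the same time. The log2 ratio to DMSO was -0.57 at 12 h, just under the 1.5-fold line, and -1.72 at 96 h, a 3.30-fold lower signal. In PANC1 cells IFI6 read 549 and 786 in DMSO, 607 and 1186 in ICG-001, and 749 and 962 in C646. There the ICG-001 96 h column was the highest, at a log2 ratio of 0.59 or 1.51-fold, and the C646 columns were at 0.45 and 0.29, short of 1.5-fold. The HCT116 call at 96 h passed in all 9 alternative settings, with a log2 ratio of -1.06 when the DMSO column of 12 h served as the control, since IFI6 rose in DMSO itself between the time points.

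In PANC1 cells, 96 h of ICG-001 gave the broadest change of the group. Of the 9 genes, 6 were higher at 1.5-fold (IFI6, IFIT2, IFIT3, ISG15, MX1 and IRF9) and 0 were lower, against 3.87% of 17257 genes called higher and 3.58% called lower. The median log2 ratio of the 9 genes was 0.60, against 0.0020 over all genes compared. IFIT3 rose from 203 to 374, a log2 ratio of 0.88. IFIT2 rose from 910.5 to 1568, a log2 ratio of 0.78. Both had been lower in DMSO at 96 h than at 12 h, when they read 264 and 1121.

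MX1 read 157 and 194 in DMSO, 182 and 306 in ICG-001, and 185 and 252 in C646, so the 96 h column of each treatment was above its 12 h column and ICG-001 at 96 h was the highest, at a log2 ratio of 0.66. IRF9, the DNA-binding subunit of ISGF3, read 407 and 478 in DMSO, 446 and 722 in ICG-001, and 399 and 511 in C646, with a log2 ratio of 0.60 for ICG-001 at 96 h. The other 5 IRF9 columns of PANC1 lay between 399 and 511. ISG15 read 1222 and 1152 in DMSO, 1335 and 1757 in ICG-001, and 1364 and 1476 in C646, so every drug column was above both DMSO columns, and the log2 ratio of ICG-001 at 96 h was 0.61. IFI6, ISG15 and IRF9 passed the 1.5-fold line narrowly, at 1.51-fold, 1.52-fold and 1.51-fold.

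With ICG-001 in PANC1, IFIT1 parted from IFIT2 and IFIT3. It read 1038 and 861 in DMSO, 873 and 779 in ICG-001, and 730.3 and 986 in C646, and its highest column was DMSO at 12 h. Its log2 ratio to DMSO was -0.25 and -0.15 for ICG-001, against -0.51 and 0.19 for C646. IFIT2, which lies in the same cluster on chromosome 10, read 1121 and 910.5 in DMSO, 1288 and 1568 in ICG-001, and 817 and 922 in C646. Thus with ICG-001 at 96 h IFIT2 was at its highest column while IFIT1 was under its DMSO column. IFI27 stayed under the limit in PANC1, with signals of 115 to 129, and OAS1 stayed between 134 and 138.

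None of the 6 calls in PANC1 reached 2-fold. With DMSO of 12 h as the control, 3 of the 6 remained (IFI6, MX1 and IRF9), at log2 ratios of 1.11, 0.96 and 0.83, and IFIT2, IFIT3 and ISG15 were at 0.48, 0.50 and 0.52. Against the mean of the 2 DMSO columns ISG15 was at 0.57 and its call was lost, leaving 5. With normexp background correction, IFIT3 was at 1.34 and MX1 at 1.08. At 12 h of ICG-001 0 of the 9 genes were called in PANC1, against 2.19% of genes higher and 0.338% lower. Their median log2 ratio was 0.13, with 8 of 9 above 0 and IFIT1 below. Of these, OAS1 (0.0081), IFIT3 (0.029) and IFI27 (0.060) lay within 1 SD of the dim genes, 0.066. Signs also depended on the control. With DMSO of 96 h IFI6, MX1 and IRF9 were at -0.37, -0.089 and -0.10. IFIT1, IFIT2, IFIT3 and ISG15 were then at 0.019, 0.50, 0.40 and 0.21.

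**Figure D2:**
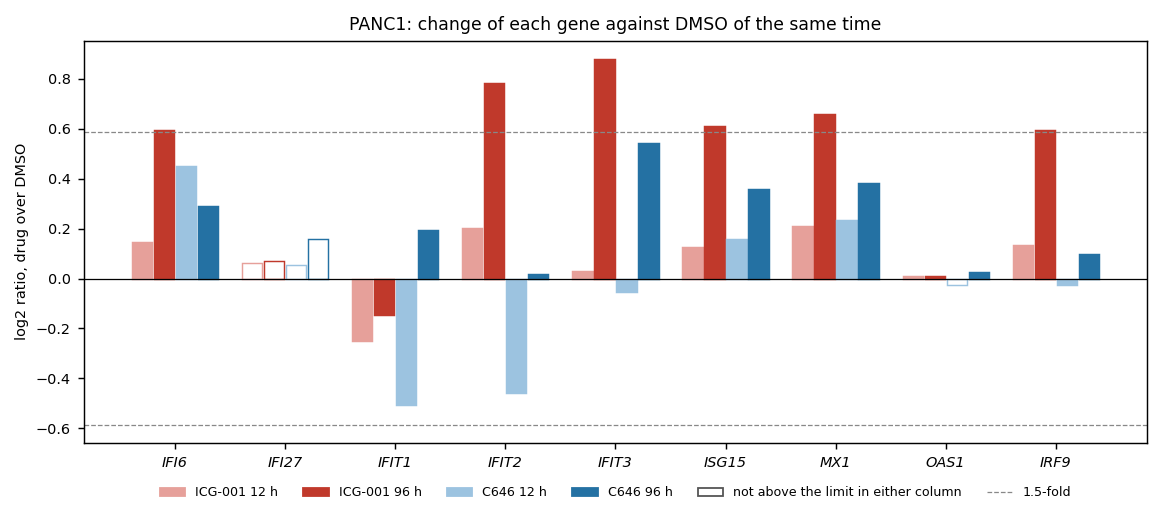
Log2 ratio of each gene in PANC1 cells over the DMSO column of the same time, for ICG-001 (red) and C646 (blue) at 12 h (light) and 96 h (dark); open bars are genes not above the detection limit in either column and dashed lines mark 1.5-fold. The dark red bars of 6 genes pass the upper line, from 0.59 to 0.88, and IFIT1 is below 0 in all but C646 at 96 h.

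In HCT116 cells the calls with ICG-001 were those of IFI6 and IFIT1. At 96 h these 2 of the 9 genes were called lower and 0 higher, against 5.16% of 16949 genes lower and 5.18% higher, and the median log2 ratio of the 9 was -0.034, against 0.0054 over all genes. IFIT1 read 218 and 245 in DMSO, 147 and 153 in ICG-001, and 168 and 275 in C646. Its ICG-001 columns were its lowest, and both lay within 10 units of the limit. The log2 ratio was -0.57 at 12 h and -0.67 at 96 h, and with normexp background correction these were -1.27 and -1.36. The IFIT1 call at 96 h was lost at 2-fold and with DMSO of 12 h as the control, where the ratio was -0.51.

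At 12 h of ICG-001 in HCT116, 0 of the 9 genes were called, against 4.85% of genes higher and 4.18% lower. IFI6 and IFIT1 stood at 1.49-fold lower each, and both were called under normexp correction, under quantile normalization over all 12 columns and against the mean of the 2 DMSO columns. ISG15 stood at a log2 ratio of 0.48 in the other direction. The ICG-001 12 h column was the lowest of the 6 for 5 of the 9 genes, against 18.7% of 19012 genes detected in the line, but 4 of these 5 (IFI27, IFIT2, MX1 and OAS1) were under the limit in that column.

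ISG15 was higher with C646 in HCT116. It read 2309 and 2171 in DMSO, 3232 and 2274 in ICG-001, and 3459 and 3476 in C646. Both C646 columns were above both DMSO columns and above both ICG-001 columns. The log2 ratio of C646 to DMSO was 0.58 at 12 h, where the fold of 1.498 missed the line, and 0.68 at 96 h, where ISG15 was the only 1 of the 9 genes called. That count compares with 1.91% of 16735 genes higher and 1.23% lower at 96 h, and at 12 h 0 of the 9 were called against 2.62% higher and 1.54% lower. ICG-001 gave ISG15 0.48 at 12 h and 0.067 at 96 h.

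After 96 h of C646 all 9 genes had a ratio to DMSO above 0 in each line, the medians being 0.064 (HCT116) and 0.19 (PANC1), against -0.00033 and -0.014 over all genes compared. The sizes were small. In HCT116, 7 of the 9 genes had their highest signal in the C646 96 h column, against 14.3% of 19012 detected genes, but IFI6, IFI27, IFIT3, MX1 and OAS1 were within 1 SD of the dim genes (0.071) above DMSO. Larger ratios were found for IFIT2, which read 180 against 153 (0.23), IRF9, at 766 against 668 (0.20), and IFIT1, at 275 against 245 (0.17). In PANC1, 0 of the 9 were called after 96 h of C646, against 2.83% of genes higher and 1.19% lower, and the largest ratios were those of IFIT3 (0.54), MX1 (0.38), ISG15 (0.36) and IFI6 (0.29). At 12 h of C646 in PANC1, 0 of the 9 were called, against 4.01% higher and 2.71% lower, and their median was -0.025, with IFI6 at 0.45 and IFIT1 and IFIT2 at -0.51 and -0.46.

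**Figure D3:**
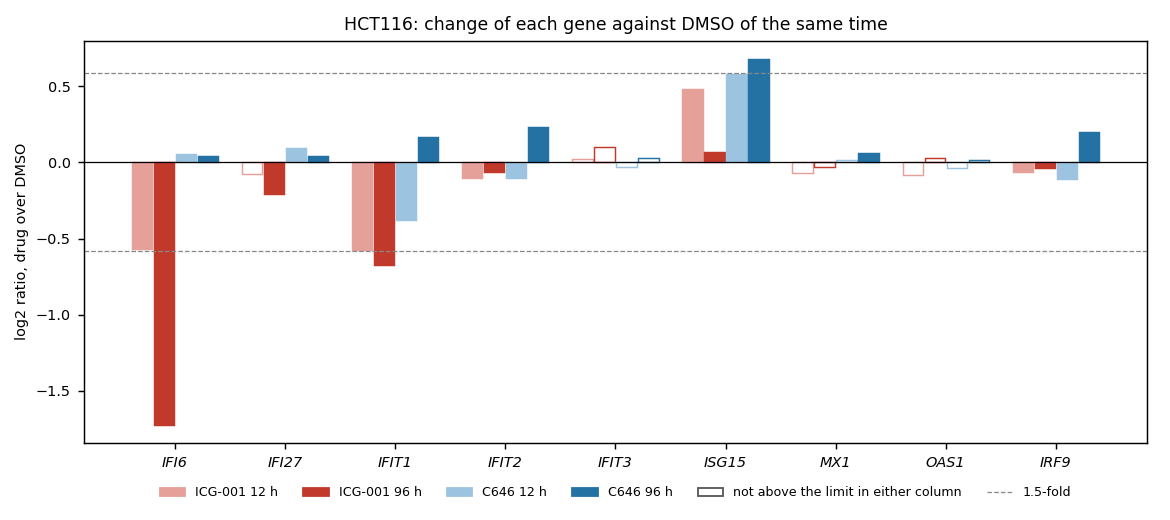
Log2 ratio of each gene in HCT116 cells over the DMSO column of the same time, drawn as for PANC1, with open bars for genes not above the limit in either column. IFI6 (-1.72) and IFIT1 (-0.67) pass the lower line with ICG-001 at 96 h, and ISG15 (0.68) passes the upper line with C646 at 96 h.

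ICG-001 and C646 were given at the same dose and times, and 4 direct comparisons were made that hold no DMSO column. In HCT116 at 96 h, 3 of the 9 genes were lower with ICG-001 than with C646 and 0 were higher, against 3.3% of 17005 genes lower and 3.25% higher. IFI6 read 353 against 1199 (-1.76), IFIT1 153 against 275 (-0.84) and ISG15 2274 against 3476 (-0.61). IFI6 alone was lower at 12 h (-0.62), against 2.84% of genes lower and 3.47% higher. In PANC1 the 1 gene called was IFIT2, higher with ICG-001 at 12 h (0.66) and at 96 h (0.77), against 1.58% and 3.34% of genes higher and 0.931% and 3.49% lower. IRF9 at 96 h (0.50) and IFIT3 (0.34) were also above C646 in PANC1 but short of 1.5-fold, and IFIT1 was below it (-0.34). For the 9 genes together, the median ratio between the drugs in HCT116 was -0.087 at 12 h and -0.25 at 96 h. In PANC1 it was 0.033 and 0.28. With no replicate arrays, an interval for the genes that fell short of the line could not be given.

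IRF9 differed more between the time points in HCT116 than between either drug and DMSO. IFI6 and IRF9 were higher there in DMSO at 96 h than at 12 h, with log2 ratios of 0.66 and 0.71, 2 of 9 genes against 1.57% of 16545 genes called higher. IRF9 rose in every HCT116 treatment, from 409 to 668 in DMSO, 392.1 to 653 in ICG-001 and 379 to 766 in C646, so that its 3 columns of 96 h lay above its 3 columns of 12 h. IFI6 rose from 766 to 1199 in C646 but went from 497 to 353 in ICG-001. IRF9 was the 1 gene called between times in ICG-001, against 4.1% of genes higher and 2.79% lower, and IFI6, IFIT1 and IRF9 were called higher in C646, against 3.83% higher and 3.3% lower. In PANC1 0 of 9 genes were called between the DMSO columns, against 0.981% higher and 0.333% lower, although IFI6 stood at 0.52 and IFIT3 at -0.38. In ICG-001 IFI6, MX1 and IRF9 were higher at 96 h, 3 of 9 against 2.23% of 17636 genes higher and 1.75% lower. With C646 0 of 9 were called, against 0.402% higher and 0.0804% lower, and all 9 ratios were above 0.

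The genes most like IFI6 were ranked over the 12 columns after each line's mean log2 signal was taken away, among 1906 genes that were detected in both lines and varied at least 2-fold within a line. DPYSL4, of the collapsin response mediator family, came first, with a Pearson's r of 0.96 and a Spearman's rho of 0.96. In HCT116 DPYSL4 read 212 and 274 in DMSO, 187 and 161 in ICG-001, and 253 and 326 in C646. In PANC1 it read 213 and 266, 225 and 338, and 289 and 304, with ICG-001 at 96 h again the highest column. TMEM45A, GALK1, ACAA2 and KHDC1L followed, with r between 0.87 and 0.88. None of the 5 is in the lists of interferon genes used here. In PANC1 at 96 h TMEM45A read 269 with ICG-001 against 298 in DMSO, the other direction from IFI6. GALK1 read 1579 against 1472 and was highest in PANC1 with C646 at 12 h (1747). KHDC1L was above the limit in PANC1 only with C646 at 96 h (138). ACAA2, like IFI6, was highest in PANC1 with ICG-001 at 96 h (585). The genes most like the mean of IFIT1, IFIT2 and IFIT3 were HERC5, the ligase that attaches ISG15 to proteins (r = 0.82), IFIH1, the RNA sensor also called MDA5 (0.82), C13orf15 (0.81), MATN2 (0.79) and TMEM54 (0.77). The mean of the IFIT genes does not stand for a course that all 3 share. Over the PANC1 columns IFIT1 had an r of -0.021 with IFIT2 and -0.12 with IFIT3, against 0.69 between IFIT2 and IFIT3. Over the HCT116 columns IFIT1 had an r of 0.85 with IFIT2. IFIT3, under the limit in every HCT116 column, was at -0.70 with IFIT1 and -0.35 with IFIT2. By Spearman's rho 2 of the 5 genes were shared for each ranking. The 12 columns share 2 lines, and the same DMSO columns stand behind both drugs.

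The rest of the pathway was read from 108 listed genes, of which 84 rows in HCT116 and 85 in PANC1 were above the limit in some column. Ligands were close to silent, with 2 of 10 rows above the limit in some column in each line. IFNB1, IFNG, IFNA1, IFNA2, IFNK, IFNL1 and IFNL3 were under the limit in all 12 columns, and 0 ligands were called in any comparison with DMSO. IFNE, the epithelial interferon epsilon, was read at 146 to 165 in HCT116, close to the limit. Receptors were detected in 6 of 6 rows in HCT116 and 5 of 6 in PANC1, and 1 was called, IFNGR1, the ligand-binding chain for interferon gamma, at 831 in DMSO and 1338 in ICG-001 in PANC1 at 96 h (0.69).

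Among kinases and STATs, STAT3 was lower with ICG-001 in HCT116 at 96 h, at 359 against 647 (-0.85), and with C646 at 12 h in HCT116 (-0.60) and in PANC1 (-0.79). JAK1 was lower with C646 in HCT116 at 12 h (-0.73). TYK2, a kinase of the interferon alpha receptor, was higher in PANC1 with C646 at 12 h (0.73) and 96 h (0.71) and with ICG-001 at 96 h (0.65). STAT2, which joins IRF9 in ISGF3, was called in 0 of the 8 comparisons with DMSO.

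IRF1, a factor that activates antigen presentation genes, was called higher in 7 of the 8 comparisons, and it stood at 0.54 in the eighth, PANC1 with C646 at 96 h. In HCT116 IRF1 read 315 and 329 in DMSO, 622 and 612 in ICG-001, and 492 and 544 in C646. In PANC1 it read 217 and 422, 736 and 1363, and 473 and 613. All drug columns of IRF1 were thus above both DMSO columns of their line. IRF1 rose in HCT116 with ICG-001 while IFI6 and IFIT1 were lower. It rose in PANC1 with ICG-001 at 12 h (1.77) when 0 of the 9 genes were called. In PANC1 IRF1 was also called higher in DMSO at 96 h than at 12 h (422 against 217). The ratio of 1.77 thus rests on the lower of the 2 DMSO columns. A link between IRF1 and the 9 genes was not tested. Of the inhibitors, PIAS1, which restrains STAT signaling, was lower in HCT116 with ICG-001 at 12 h (-0.74), and no other was called.

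Of 7 to 10 nucleic acid sensors compared with DMSO each time, at most 1 was called, beside 0.338% to 5.18% of all genes in each direction. IFIH1 rose from 316 to 803 in PANC1 with ICG-001 at 96 h (1.34), CGAS (listed as C6orf150), the DNA sensor, rose with C646 at 96 h (0.70) in PANC1, and STING1 (listed as TMEM173), which acts after CGAS, was lower in HCT116 with ICG-001 at 96 h (-0.64). Of the other interferon-stimulated effectors, 8 of 41 compared after 96 h of ICG-001 in PANC1 were higher and 3 were lower. The shares of all genes were 3.87% higher and 3.58% lower, and the median over the effectors was 0.18. CCL5, a chemokine that draws T cells, rose from 444 to 3740, an 8.42-fold change, and was also called higher with C646 in PANC1, at 0.62 at 12 h and 1.10 at 96 h. IFITM1, a membrane protein that blocks viral entry, was lower, at 483 against 1868 (-1.95), but its DMSO column had read 643 at 12 h. With C646 at 96 h IFITM1 stood at -0.98, and this sign turned to 0.56 against DMSO of 12 h. In HCT116 at the same time 3 of 36 effectors were higher and 3 lower with ICG-001, beside 5.18% and 5.16% of all genes, which is near the background. ISG20, an exonuclease, was higher there at 12 h (1.12) and lower at 96 h (-0.76).

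Antigen presentation genes were also higher in PANC1. With ICG-001 at 96 h 6 of 12 genes compared were higher and 0 lower, with a median of 0.63. TAP1, a subunit of the peptide transporter, rose from 1597 to 4601 (1.53). PSMB8, an immunoproteasome subunit, rose from 246 to 708 (1.53), and PSMB9, another, from 180.1 to 435 (1.27). HLA-B rose from 424 to 1616 (1.93), with HLA-C at 0.93 and HLA-F at 0.70. The HLA genes are nearly identical over long stretches, so these 3 rows may share signal. The same 6 genes were higher with ICG-001 than with C646 at 96 h, against 3.34% of all genes higher and 3.49% lower. The median over the list was 0.59. In HCT116 0 of 12 were called with either drug at 96 h. The shares of all genes there were 5.18% higher and 5.16% lower with ICG-001, and 1.91% and 1.23% with C646, so a count of 0 is near the background. PSMB8 was under the limit in all 6 HCT116 columns. Over all roles, 18 of 83 rows compared in PANC1 after 96 h of ICG-001 were higher and 3 were lower, beside the 3.87% and 3.58% given above. In the other 7 comparisons 1 to 4 rows were higher and 0 to 5 lower, of 75 to 83, beside 1.91% to 5.18% of all genes higher and 0.338% to 5.16% lower, so these counts are near the background.

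**Figure D4:**
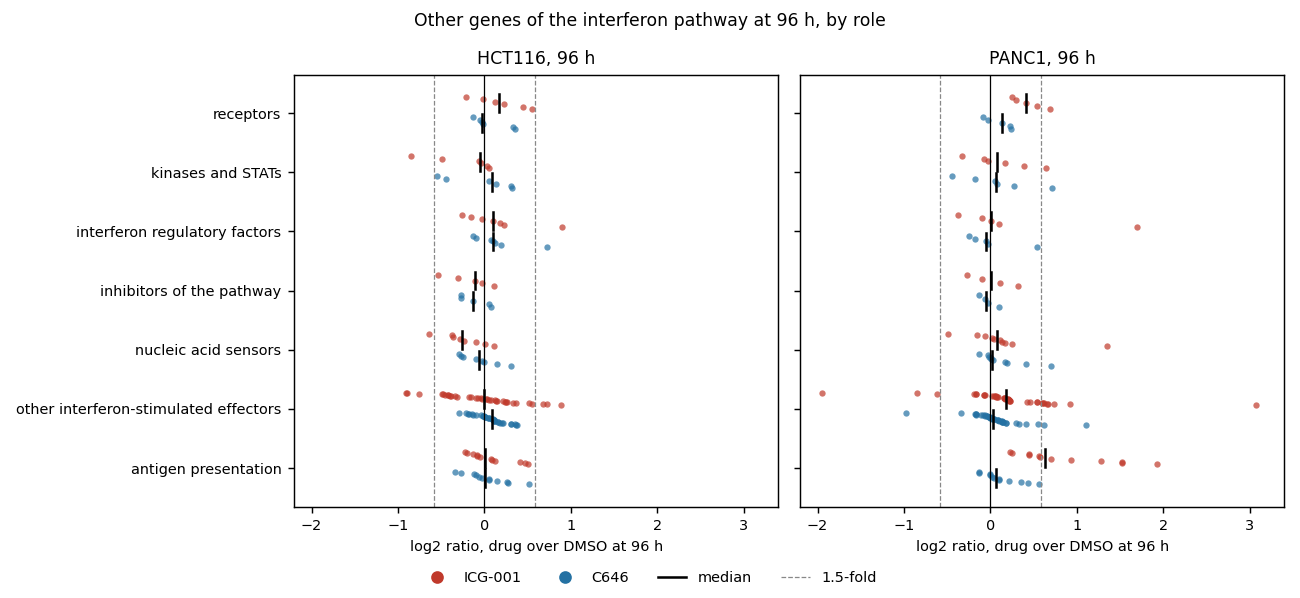
Log2 ratio over DMSO at 96 h of the other interferon pathway genes that were compared, by role, in HCT116 (left) and PANC1 (right); each point is 1 row, red for ICG-001 and blue for C646, vertical bars are medians and dashed lines mark 1.5-fold. In PANC1 the red points of antigen presentation lie above 0 with a median of 0.63, CCL5 lies at 3.07 and IFITM1 at -1.95.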

How the data were processed

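RNA of 12 groups (2 cell lines, 3 treatments and 2 times) was measured on Illumina BeadChips. Each deposited value is a linear signal intensity for 1 named gene. By the published methods, the authors took these values from GenomeStudio (version not given in the sources used here) as quantile-normalized signals with no background subtracted, and averaged replicate arrays. The table holds no detection p-values, and the number of arrays limits the precision.

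Groups came from the sample titles. Of the rows, 17755 carried a symbol now used by RefSeq (GRCh38.p14), 3305 an older one, 2669 a gene identifier and 10958 none. The array annotation's build is not given in the sources used here, and probe sequences were not analysed here. Promoter windows are RefSeq's.

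Ratios are differences of log2 intensities of 2 columns. A column's limit was the peak of its kernel density plus 2.33 SD, with the SD taken below the peak. The members and the pathway lists were chosen with earlier results of these data known. All 9 members are named, with, per role list, up to the 3 genes with the largest change among those called, and the 5 genes most like IFI6 or the mean of the IFIT genes. Other genes (among them STAT2, IFNE, PSMB9, HLA-C and HLA-F) were named after their values were seen, and some genes are not reported here.

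Alternatives were fold lines of 1.2 and 2, all genes without the filter, 5 SD in the limit, normexp (offset 16) before quantile normalization in each line, centring on the median, quantile normalization over all 12 columns, the DMSO column of the other time, the mean of the 2 DMSO columns, and Spearman's rho for the rankings. Tools were R 4.3.3 (limma 3.58.1) and Python 3.11.15 (pandas 2.3.3, numpy 2.4.6, matplotlib 3.10.9 and scipy 1.17.1). The procedure was tested on simulated data.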

Additional observations from a re-analysis of the deposited data

Results flagged for a closer look

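Of the 5 genes that could be compared with DMSO in both lines at both times of ICG-001, 3 had both ratios below 0 in HCT116 and both above 0 in PANC1. IFI6 stood at -0.57 and -1.72 in HCT116 at 12 and 96 h and at 0.15 and 0.59 in PANC1, a difference between the lines' means of -1.52. IFIT2 stood at -0.10 and -0.062 against 0.20 and 0.78, a difference of -0.57. IRF9 stood at -0.061 and -0.034 against 0.13 and 0.60, a difference of -0.41. The difference between the lines was not tested, since each ratio rests on 1 column per group. Signs opposite between the lines were found in 9.94% of the 14037 genes compared. IFI27 and MX1 had the same signs as these 3 (-0.073 and -0.21 against 0.060 and 0.070, and -0.073 and -0.031 against 0.21 and 0.66), but each was under the limit in both columns of at least 1 comparison. The HCT116 values of IRF9 and the 96 h value of IFIT2 were smaller than the spread of dim genes in HCT116, 0.072. Only the IFI6 values lie beyond the spread of dim genes in both lines at both times, and that spread does not measure how brighter genes vary. Some signs depended on the control. In PANC1 at 12 h IFI6 was at -0.37 with DMSO of 96 h and at -0.11 with the mean of the 2 DMSO columns. With DMSO of the other time IRF9 turned to -0.10 in PANC1 at 12 h and to 0.67 in HCT116 at 96 h. At 96 h IFI6 kept its signs, at -1.06 (HCT116) and 1.11 (PANC1) with DMSO of 12 h. With C646, 0 of 5 members were opposite between the lines, against 10.1% of genes.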

How the results depend on the processing

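No paired analysis was possible because each group has 1 averaged column. IFI6, lower in HCT116 with ICG-001 at 96 h, was called in 9 of 9 alternatives. With the 2-fold line the count in that comparison went from 2 lower to 1, that of C646 in HCT116 at 96 h from 1 higher to 0, and that of ICG-001 in PANC1 at 96 h from 6 higher to 0. With the 1.2-fold line the counts of 0 became 1 higher and 2 lower (HCT116, ICG-001, 12 h), 1 and 1 (HCT116, C646, 12 h), 1 and 2 (PANC1, C646, 12 h) and 4 higher (PANC1, C646, 96 h). The count of 0 for PANC1 with ICG-001 at 12 h did not change. For this and the other alternatives the share of all genes called is not given here, so the counts cannot be set against a background. With normexp correction the median of the 9 genes moved to -0.27 and -0.12 in HCT116 with ICG-001 at 12 and 96 h, to -0.11 and 0.17 with C646, and to 0.34 in PANC1 with C646 at 96 h, and for ICG-001 over C646 to -0.17 and -0.60 in HCT116 and 0.11 in PANC1 at 12 h. The counts then were 2 lower (HCT116, ICG-001, 12 h), 1 lower (HCT116, C646, 12 h) and 2 higher (PANC1, C646, 96 h). Normexp also took past the 1.5-fold line IFIT3 (-0.66) and MX1 (0.60) between the PANC1 DMSO columns, IFI27 (0.67) between those of HCT116, and IFI27 (-0.60) and IFIT2 (-0.71) for ICG-001 over C646 in HCT116 at 96 h. Quantile normalization over 12 columns gave 2 lower in HCT116 with ICG-001 at 12 h, and centring gave 1 higher in HCT116 with C646 at 12 h.

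With DMSO of the other time, HCT116 had 3 lower (ICG-001, 12 h), 1 higher and 1 lower (ICG-001, 96 h), 1 higher and 2 lower (C646, 12 h) and 3 higher (C646, 96 h), and at 96 h PANC1 had 3 higher (ICG-001) and 2 higher (C646). The medians at 12 and 96 h became -0.10 and 0.31 (HCT116, C646) and 0.019 and 0.50 (PANC1, ICG-001), and IFITM1 turned to 0.56 in PANC1 with C646 at 96 h. The mean of both DMSO columns gave 2 lower (HCT116, ICG-001, 12 h), 1 higher (HCT116, C646, 12 h), 5 higher in place of 6 (PANC1, ICG-001, 96 h) and medians of 0.23 (HCT116, C646, 96 h), 0.060 (PANC1, ICG-001, 12 h) and 0.055 (PANC1, C646, 12 h). Over detected members alone the medians were -0.14 and 0.17 in HCT116 at 96 h with ICG-001 and C646, and -0.17 for ICG-001 over C646 at 12 h. No count changed without the filter on dim genes or with a limit at 5 SD. The cause of these shifts was not tested beyond what each setting changes by construction. IFI27, IFIT3, MX1 and OAS1 in HCT116 and IFI27 and OAS1 in PANC1 lie at or near the limit, where no change of moderate size could be read.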
